A study of Mus musculus with 26 samples.

Results

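The subject is a set of 36 genes of G2 phase and mitosis, followed in mouse embryonic stem cells that differ in the gene Prdm14 and in culture medium. The set was given as a list of gene symbols. For each gene the probe set with the highest mean over 26 arrays was taken, among probe sets annotated to 1 gene symbol. This gave a value for 35 of the 36 genes, out of 18193 genes measured in the same way. Ccnb1, the gene of cyclin B1, was not matched to a probe set here and has no value below.

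RNA was measured on Affymetrix arrays in 13 groups of 2 arrays each. All cells were male, of the C57BL/6 strain, and were grown on mouse embryonic fibroblast feeders. The lines compared were Prdm14(+/+) embryonic stem cells with no genetic modification, called wild type, Prdm14(-/-) cells, called knockout, and AGP14 cells, which are Prdm14(-/-) cells that carry the transgene pPyCAG-AGP14. The CAG promoter of that transgene is active in most cell types. Each line was sampled in 2i medium (N2B27 with the MEK inhibitor PD0325901 at 0.4 uM, the GSK3 inhibitor CHIR99021 at 3 uM and LIF at 1000 units per ml). Each was also sampled after 2 days in medium with 20% fetal bovine serum and LIF, called serum, and after 2 days in the same medium without LIF. Wild type and knockout were sampled in addition after 2 days in serum and LIF with PD0325901 at 0.4 uM. The last groups were Prdm14 (+/+) epiblast-like cells (EpiLCs) at day 2 and day 3, from a line with the Blimp1-mVenus and Stella-ECFP (BVSC) transgene. Separate cultures for the 2 arrays of a group are not stated in the labels. The p-values therefore reflect how far these arrays differ from each other, a spread that may be technical.

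The genes serve one process. Cyclin-dependent kinase 1 with cyclins A2 and B drives entry into mitosis, and the Polo and Aurora kinases build the spindle and attach chromosomes to it. The spindle checkpoint holds back Cdc20 and the anaphase promoting complex until all kinetochores are attached. That ubiquitin ligase then destroys securin and cyclin B, separase cuts cohesin, and midzone proteins direct cytokinesis. Many of these genes are transcribed together late in the cell cycle, through promoter elements bound by NF-Y, B-Myb, FoxM1 and the MuvB complex. Mouse embryonic stem cells divide fast, with a short G1 phase, so a large share of a culture is in S, G2 or M phase. Array signals are given as log2 values. The base of the log is inferred from the range of the deposited values, 0 to 13.89. In RNA from a whole culture, fewer cells in a phase and less RNA per cell cannot be told apart.

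The arrays fell into 2 sets by the level of lys, phe and dap, poly-A control RNAs that are added to a sample before labelling. The control lys had a log2 signal of 7.08 to 7.54 on 14 arrays: all serum groups with and without LIF, and AGP14 in 2i. It had 13.28 to 13.51 on the other 12 arrays: wild type and knockout in 2i, both groups with MEK inhibitor in serum, and the EpiLCs. Signal of 3′ over 5′ probe sets moved with this split, at -0.03 to 0.05 against -0.23 to -0.16 for Gapdh. On the 14 arrays against the 12, phe had 8.35 to 8.67 against 10.93 to 11.36. For dap the ranges were 10.75 to 11.09 against 12.11 to 12.49. The poly-A control thr overlapped, at 8.61 to 9.03 against 8.43 to 9.13. The labels name no batch for this split. Comparisons within 1 set come first below, and in a comparison across the sets the control level and the groups cannot be told apart. The signal of the Prdm14 probe set went against the labels in 2i and with MEK inhibitor. Its mean was 11.28 ± 0.06 (SD, n = 2) in knockout against 9.18 ± 0.32 (SD, n = 2) in wild type in 2i. With MEK inhibitor in serum it was 10.74 ± 0.19 against 9.26 ± 0.31. Knockout was below wild type in serum, at 5.94 ± 0.76 against 6.63 ± 1.06, and without LIF, at 3.63 ± 0.59 against 4.72 ± 0.63. In AGP14 cells the probe set had 9.20 ± 0.13 in 2i, 6.38 ± 0.06 in serum and 4.99 ± 0.18 without LIF. Which stretch was deleted is not stated in the labels, so this probe set does not check the labels. The word knockout below stands for the arrays labelled so, and directions between genotypes rest on those labels. Pou5f1, a defining gene of both stem and epiblast cells, had group means of 12.20 to 12.73. Fgf5, an epiblast gene, had 9.66 ± 0.05 in EpiLCs at day 2 and 3.42 ± 0.54 in wild type in 2i, but also 9.69 ± 0.48 in wild type without LIF.

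Between the highest and the lowest group mean each of the 35 genes moved by 0.32 to 2.08 log2 units, with a median of 0.76, while the SD between the 2 arrays of a group had a median of 0.05. The mean signal of the set was lowest in AGP14 cells in 2i, at 10.02 on both arrays. It was 10.20 to 10.28 on the arrays of knockout and wild type in 2i. It was 10.31 to 10.44 on the serum arrays with and without LIF, 10.41 to 10.46 with MEK inhibitor in serum, 10.52 to 10.54 in EpiLCs at day 2 and 10.68 at day 3. Within each of the 2 sets of arrays, no array in 2i reached the lowest array of another medium. Across the sets, the control level and the groups cannot be told apart. Of the 35 genes, 20 had their lowest group mean in AGP14, 7 in knockout and 5 in wild type, all in 2i. The highest group mean lay in EpiLCs at day 3 for 18 genes. These counts cross the 2 sets of arrays. Shares over all genes were not counted for them, so they do not set the 35 genes apart.

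**Figure D1:**
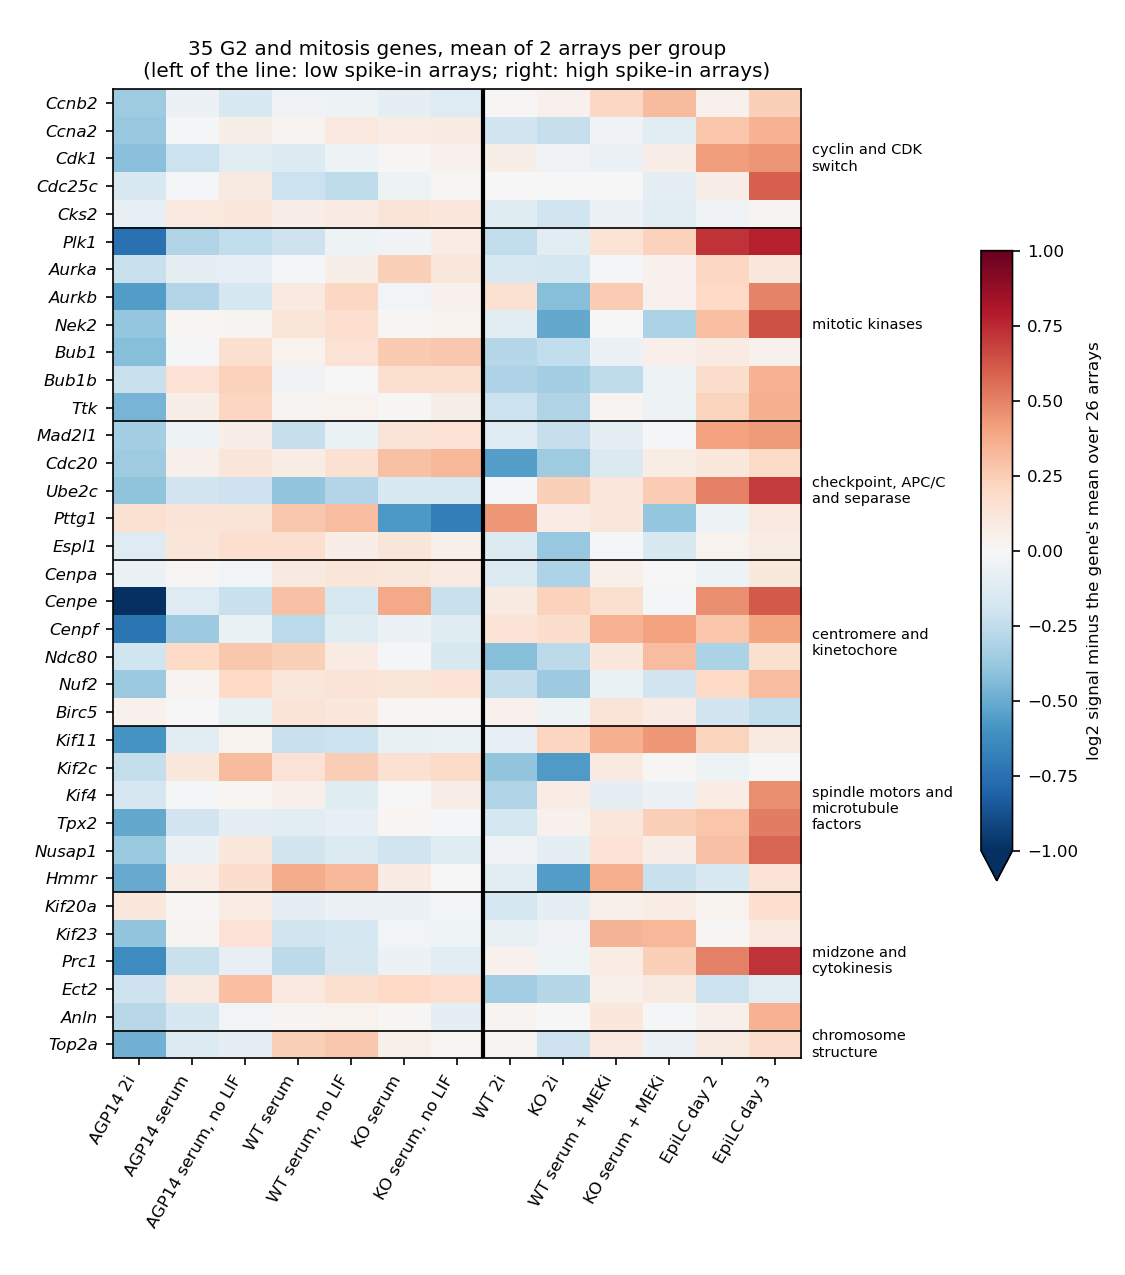
Mean log2 signal of the 35 genes in each of the 13 groups (2 arrays each), as the difference from the gene's mean over the 26 arrays, with genes ordered by role and the 2 sets of arrays split by the thick line; the scale ends at -1 and 1. Blue is below and red above the gene's mean. AGP14 in 2i has the lowest mean for 20 genes, and EpiLCs at day 3 have the highest mean for 18. These ranks cross the 2 sets of arrays, and shares over all genes were not counted for them.

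The 3 genes taken as fixed references show the range of patterns. Cdk1, the mitotic kinase itself, had 11.26 and 11.31 in AGP14 in 2i, 11.66 and 11.68 in knockout in 2i and 11.74 and 11.79 in wild type in 2i. In serum Cdk1 had 11.54 and 11.44 in AGP14, 11.68 and 11.75 in knockout and 11.57 and 11.57 in wild type. Without LIF it had 11.57 and 11.61 in AGP14, 11.73 and 11.77 in knockout and 11.65 and 11.66 in wild type. Cdk1 was thus lowest in AGP14 cells in 2i, also within the low control level, and the other stem cell arrays covered a narrow range. With MEK inhibitor in serum it had 11.70 and 11.85 in knockout and 11.62 and 11.67 in wild type, and in EpiLCs 12.18 and 12.07 at day 2 and 12.14 and 12.16 at day 3. The EpiLC arrays stood above all stem cell arrays.

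Plk1, the Polo-like kinase of spindle assembly and cytokinesis, had the widest range of the references. It had 9.03 and 9.04 in AGP14 in 2i, 9.69 and 9.66 in knockout in 2i and 9.53 and 9.54 in wild type in 2i. In serum it had 9.57 and 9.39 in AGP14, 9.73 and 9.77 in knockout and 9.66 and 9.50 in wild type, and without LIF 9.49 and 9.59, 9.82 and 9.90, and 9.76 and 9.70 in the same order. With MEK inhibitor in serum it had 10.04 and 9.99 in knockout and 9.96 and 9.88 in wild type, and in EpiLCs 10.52 and 10.49 at day 2 and 10.53 and 10.60 at day 3. AGP14 in 2i was again the low end and the EpiLCs the high end, with no overlap with any other group. Each was also the extreme within its own set of arrays. Top2a, the topoisomerase that untangles sister chromatids, had 11.63 and 11.64 in AGP14 in 2i, 11.90 and 11.91 in knockout in 2i and 12.24 and 12.04 in wild type in 2i. In serum Top2a had 12.02 and 11.93 in AGP14, 12.11 and 12.22 in knockout and 12.43 and 12.27 in wild type, and without LIF 12.01 and 12.02, 12.08 and 12.18, and 12.48 and 12.29. With MEK inhibitor in serum it had 11.98 and 12.13 in knockout and 12.38 and 12.04 in wild type, and in EpiLCs 12.28 and 12.13 at day 2 and 12.32 and 12.25 at day 3. Top2a did not single out the EpiLCs, and in serum with and without LIF the wild type arrays stood above those of the other 2 lines. The first wild type array was the higher of the 2 in every medium, and the second lay closer to knockout.

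In AGP14 cells, where both media lay on arrays with the low control level, serum went with higher signal of most of the set. Of the 35 genes, 25 were higher in serum than in 2i and 0 lower, at an adjusted p under 0.05 (limma, Benjamini-Hochberg over 18193 genes), against 9.97% of all genes higher and 8.22% lower. The median difference was 0.32 over the 35 genes, 32 of them positive, and 0.01 over all genes. By mean signal all 35 genes lay above the median gene, at percentiles of 64.76 to 99.34 with a median of 91.1. The shares over all genes, here and below, thus include many dimmer genes. Shares among genes of similar signal were not counted. By role, 4 of 5 genes of the cyclin and CDK switch rose, 5 of 7 mitotic kinases, 3 of 5 checkpoint, APC/C and separase genes, 4 of 6 centromere and kinetochore genes, 5 of 6 spindle motors and microtubule factors, 3 of 5 midzone and cytokinesis genes, and Top2a. Without the first serum array the count was 14, and without any other of the 4 arrays 17 to 23. The 14 genes that kept their call without each of the 4 arrays were Bub1, Ccna2, Ccnb2, Cdc20, Cenpe, Ect2, Hmmr, Kif11, Kif23, Kif2c, Nuf2, Plk1, Prc1 and Ttk.

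Cenpe, the kinetochore motor that brings chromosomes to the spindle equator, had 7.64 and 7.32 in 2i and 8.94 and 8.70 in serum in AGP14 cells. The difference was 1.34 ± 0.15 (SE, adjusted p = 4.89e-06, limma), and its other probe set gave 0.40. Hmmr, a microtubule-binding factor of the spindle poles, had 9.66 and 9.65 in 2i and 10.28 and 10.18 in serum (0.57 ± 0.12, adjusted p = 0.00189, limma). One of its 4 other probe sets ran the other way, at -0.24. Ttk, the Mps1 kinase of the spindle checkpoint, had 8.60 and 8.45 in 2i and 9.12 and 8.98 in serum (0.52 ± 0.10, adjusted p = 0.000959, limma), while its other probe set gave -0.25. The pairs of arrays did not overlap for these genes. Kif11, the motor that separates the spindle poles, rose by 0.49 and its 2 other probe sets by 0.50 and 0.65, so there the probe sets gave one direction. Probe sets of opposite sign were also seen for Bub1b (-0.80), Kif23 (-0.84), Kif2c (-0.13), Nek2 (-0.16), Top2a (-0.94) and Tpx2 (-0.06).

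Wild type and knockout cells in serum with MEK inhibitor could be set against their own 2i cultures on arrays with the high control level. In wild type 11 of the 35 genes were higher and 1 lower, against 5.45% of all genes higher and 7.06% lower, with a median difference of 0.17 and 32 positive. In knockout 13 were higher and 1 lower, against 6.61% higher and 6.59% lower, with a median of 0.22 and 30 positive. Ndc80, the microtubule-binding core of the outer kinetochore, had 7.82 and 8.12 in wild type in 2i and 8.48 and 8.52 with serum and MEK inhibitor (0.53 ± 0.11, adjusted p = 0.00296, limma). In knockout it had 8.23 and 8.04 against 8.77 and 8.64 (0.57 ± 0.11, adjusted p = 0.00145, limma). Kif2c, the microtubule depolymerase that corrects faulty attachments, had 9.86 and 9.82 in wild type in 2i and 10.29 and 10.35 with serum and MEK inhibitor (0.48 ± 0.06, adjusted p = 4.65e-05, limma). In knockout it had 9.64 and 9.69 against 10.30 and 10.19 (0.58 ± 0.06, adjusted p = 5.92e-06, limma). Neither gene overlapped between the 2 media in either line. Among the called genes, another probe set of Kif23 gave the opposite sign in knockout (-0.25).

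Next by size among the higher genes were Hmmr in wild type and Aurkb in knockout. Hmmr had 10.25 and 9.85 in wild type in 2i and 10.69 and 10.34 with serum and MEK inhibitor (0.47 ± 0.12, adjusted p = 0.0132, limma). Aurkb, the kinase of the chromosomal passenger complex, had 9.23 and 9.24 in knockout in 2i and 9.68 and 9.73 with serum and MEK inhibitor (0.47 ± 0.13, adjusted p = 0.0242, limma). Hmmr lost its call without the second 2i array (adjusted p = 0.21) or the first MEK inhibitor array (adjusted p = 0.209), with differences of 0.27 to 0.67 over the 4 omissions. Aurkb lost it without any of its 4 arrays (adjusted p up to 0.112), while its difference stayed at 0.45 to 0.50, and Ndc80 in wild type lost it without the first 2i array (0.061). The wild type count was 8 or 9 without each of the 4 arrays, and the knockout count 9 without the second 2i array and 10 to 12 without another. A fit that blocks on replicate number inside each line gave a knockout count of 24. Genes that kept their call without each array were Cdc20, Ect2, Kif11, Kif23, Kif2c and Plk1 in wild type, and Cdc20, Cenpa, Ect2, Kif23, Kif2c, Ndc80, Plk1 and Pttg1 in knockout. The difference between the 2 genotypes in this response was called for 0 of the 35 genes, with 2 at an unadjusted p under 0.05, and for 0.0605% of all genes (limma interaction).

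EpiLCs at day 2 were compared with wild type cells in 2i, also within the high control level. The EpiLCs came from the BVSC line, and the wild type 2i cells from a line without that transgene. No 2i arrays of the BVSC line were measured, so line and cell state cannot be told apart here. Of the 35 genes, 18 were higher and 2 lower, where 17.2% of all genes were higher and 21.1% lower. The median difference was 0.33, with 32 positive, against -0.01 over all genes. By role, 6 of 7 mitotic kinases, 5 of 6 spindle motors and microtubule factors, 3 of 5 checkpoint, APC/C and separase genes and 2 of 5 genes of the cyclin and CDK switch rose, as did 1 of 6 centromere and kinetochore genes and 1 of 5 midzone and cytokinesis genes. Plk1, with the values given above, differed by 0.97 ± 0.07 (adjusted p = 3.25e-09, limma). Cdc20, the activator of the anaphase promoting complex, had 11.96 and 11.91 in wild type in 2i and 12.59 and 12.59 in EpiLCs (0.66 ± 0.06, adjusted p = 2.38e-08, limma), with 1.09 and 1.20 on its 2 other probe sets. Mad2l1, the checkpoint protein that binds Cdc20, had 10.99 and 11.04 against 11.60 and 11.49 (0.53 ± 0.08, adjusted p = 3.87e-05, limma). All 3 genes were higher on both EpiLC arrays, and kept their calls without each of the 4 arrays, as did 15 of the 20 called genes. Ube2c, the ubiquitin-conjugating enzyme of the same complex, rose by 0.52 and Cdk1 by 0.36. Pttg1, securin, fell by 0.48 and Birc5, survivin, by 0.24. Birc5 lost its call without the first 2i array (adjusted p = 0.238) or either EpiLC array. Other probe sets gave the opposite sign for Bub1b (-1.21), Kif11 (-0.75), Nek2 (-0.10), Nusap1 (-0.11), Tpx2 (-0.10) and Ttk (-0.63).

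From day 2 to day 3 of EpiLC culture 8 of the 35 genes rose and 0 fell, against 7.89% of all genes higher and 9.69% lower. Among the called genes, other probe sets gave the opposite sign for Anln (-0.30), Nek2 (-0.56) and Tpx2 (-0.88). Cdc25c, the phosphatase that activates Cdk1, had 7.58 and 7.76 at day 2 and 8.17 and 8.23 at day 3 (0.53 ± 0.12, adjusted p = 0.00401, limma). Ndc80 had 8.05 and 8.11 and then 8.63 and 8.48 (0.48 ± 0.11, adjusted p = 0.00435, limma). Kif4, the chromokinesin of the midzone, had 8.14 and 8.31 and then 8.71 and 8.52 (0.39 ± 0.12, adjusted p = 0.0247, limma). Days did not overlap for these genes, but the count fell to 3 without the first day 2 array, to 5 without the second and to 2 without the first day 3 array. Anln alone kept its call without each array, and its other probe set gave -0.30. Cdc25c lost its call without the first day 2 array (adjusted p = 0.0653), Ndc80 without the first day 3 array (0.0594), and Kif4 without either of these (0.209 and 0.206).

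**Figure D2:**
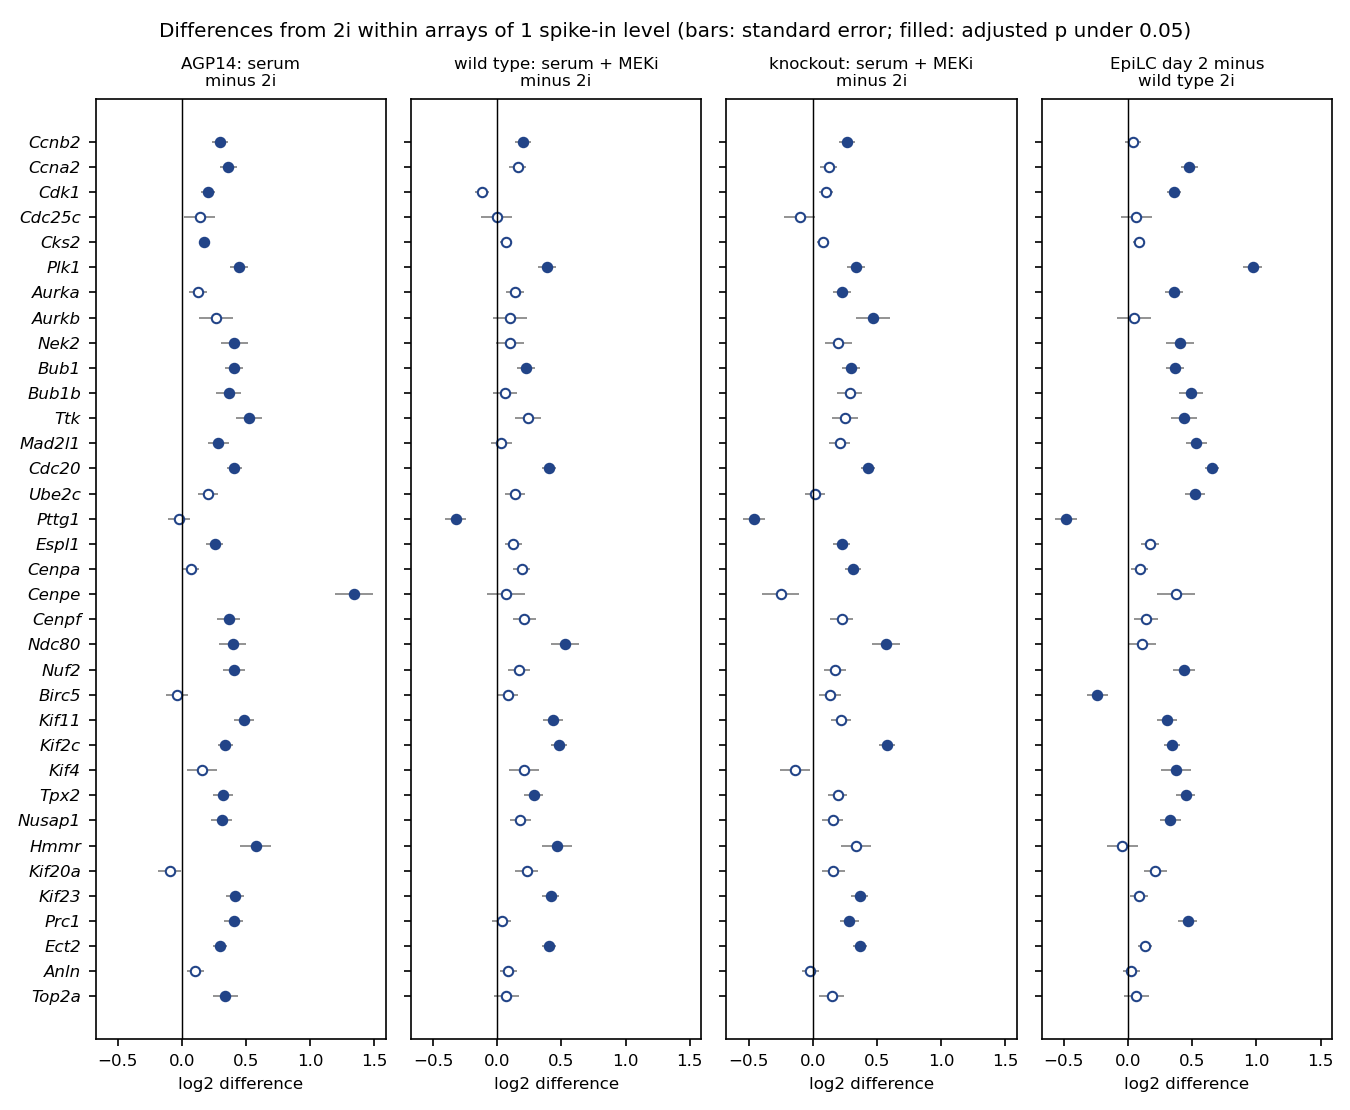
Log2 difference of each of the 35 genes from 2i in the 4 comparisons that lie within 1 level of the spike-in controls. Bars are standard errors, and filled points have an adjusted p under 0.05 (limma). The last panel sets EpiLCs against 2i cells of another line. Most points lie right of 0: 32, 32, 30 and 32 of 35 from left to right, and Pttg1 lies left of 0 in all 4 and is called in the last 3, of which wild type with MEK inhibitor loses the call without the second 2i array or either MEK inhibitor array.

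The same genes can be read across these comparisons, of which MEK inhibitor in wild type and EpiLCs share the wild type 2i arrays. The EpiLC comparison also differs in line. Plk1 differed from 2i by 0.44 in AGP14 in serum, 0.39 and 0.34 in wild type and knockout with MEK inhibitor, and 0.97 in EpiLCs. Across the sets of arrays Plk1 was not called in serum against 2i, with 0.04 in wild type (adjusted p = 0.689, limma) and 0.07 in knockout (adjusted p = 0.468, limma). For Cdc20 the values were 0.41, 0.40, 0.43 and 0.66, and for Kif2c 0.34, 0.48, 0.58 and 0.34. For Bub1, the kinase that recruits the checkpoint to kinetochores, they were 0.41, 0.23, 0.30 and 0.36, of which the second lost its call without any 1 of its 4 arrays and the third without the second 2i or the first MEK inhibitor array. Cenpe, by contrast, had 1.34, 0.07, -0.25 and 0.38, of which the first was called. The AGP14 2i arrays were the only ones with Cenpe below 8.57.

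Promoters of 6 genes are shown because their genes mark the patterns above: Plk1, Cdc20, Bub1 and Kif2c as genes called higher in each of the comparisons just given, Cdk1 as the reference, and Pttg1 as the gene that ran the other way. Each line gives the 150 bases before a RefSeq transcript start (GRCm38.p6), 5′ to 3′ on the strand of the gene. Capitals mark matches, on either strand, to TTTGAA or TTCGAA, the cell cycle genes homology region bound by MuvB, and to CCAAT, the NF-Y box. The windows are chr7:122159285-122159434 (plus strand) for Plk1, chr4:118437344-118437493 (minus) for Cdc20, chr2:127831860-127832009 (minus) for Bub1, chr4:117178773-117178922 (minus) for Kif2c, chr10:69352913-69353062 (minus) for Cdk1 and chr11:43425982-43426131 (minus) for Pttg1.
Plk1: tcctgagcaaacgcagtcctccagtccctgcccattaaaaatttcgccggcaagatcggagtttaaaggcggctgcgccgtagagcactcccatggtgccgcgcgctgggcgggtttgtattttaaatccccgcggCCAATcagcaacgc
Cdc20: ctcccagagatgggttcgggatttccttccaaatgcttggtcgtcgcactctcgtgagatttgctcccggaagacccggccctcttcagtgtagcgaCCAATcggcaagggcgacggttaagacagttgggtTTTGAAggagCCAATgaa
Bub1: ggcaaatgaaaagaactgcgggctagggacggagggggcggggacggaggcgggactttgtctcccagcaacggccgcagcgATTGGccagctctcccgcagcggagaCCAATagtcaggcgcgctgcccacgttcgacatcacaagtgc
Kif2c: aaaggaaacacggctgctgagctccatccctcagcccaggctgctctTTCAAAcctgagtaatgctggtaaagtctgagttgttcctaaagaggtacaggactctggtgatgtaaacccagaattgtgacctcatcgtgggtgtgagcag
Cdk1: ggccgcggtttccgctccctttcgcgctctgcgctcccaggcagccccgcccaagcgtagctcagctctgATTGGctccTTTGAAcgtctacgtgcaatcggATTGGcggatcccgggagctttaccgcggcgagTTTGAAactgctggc
Pttg1: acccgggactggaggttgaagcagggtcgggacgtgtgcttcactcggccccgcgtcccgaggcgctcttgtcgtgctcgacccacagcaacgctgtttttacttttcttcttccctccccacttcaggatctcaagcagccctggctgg

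Positions are counted from the start, with the base before it as -1. Cdk1 holds TTTGAA at positions -71 and -15 and CCAAT on the other strand at positions -80 and -48. Cdc20 holds TTTGAA at -18, between CCAAT boxes at -53 and -8. Bub1 holds 2 CCAAT boxes in the printed stretch, and TTCGAA at position 15, after the start. Plk1 holds a CCAAT box at -14 and, after the start, TTTGAA at 31. Kif2c holds TTTGAA on the other strand at -103 and no CCAAT. None of the 3 motifs is in the 300 base window of Pttg1. The listed starts of Kif2c and Pttg1 lie inside the RefSeq span of the gene. A window from 250 bases before to 50 after the start was listed for 30 of the 35 measured genes, 32 windows in all. TTTGAA was in 23 of these 32 windows, against 17.9% of all 32851 windows in the table. CCAAT was in 24, against 37.4%, and TTCGAA in 3, against 1.56%. A match describes the sequence alone.

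**Figure D3:**
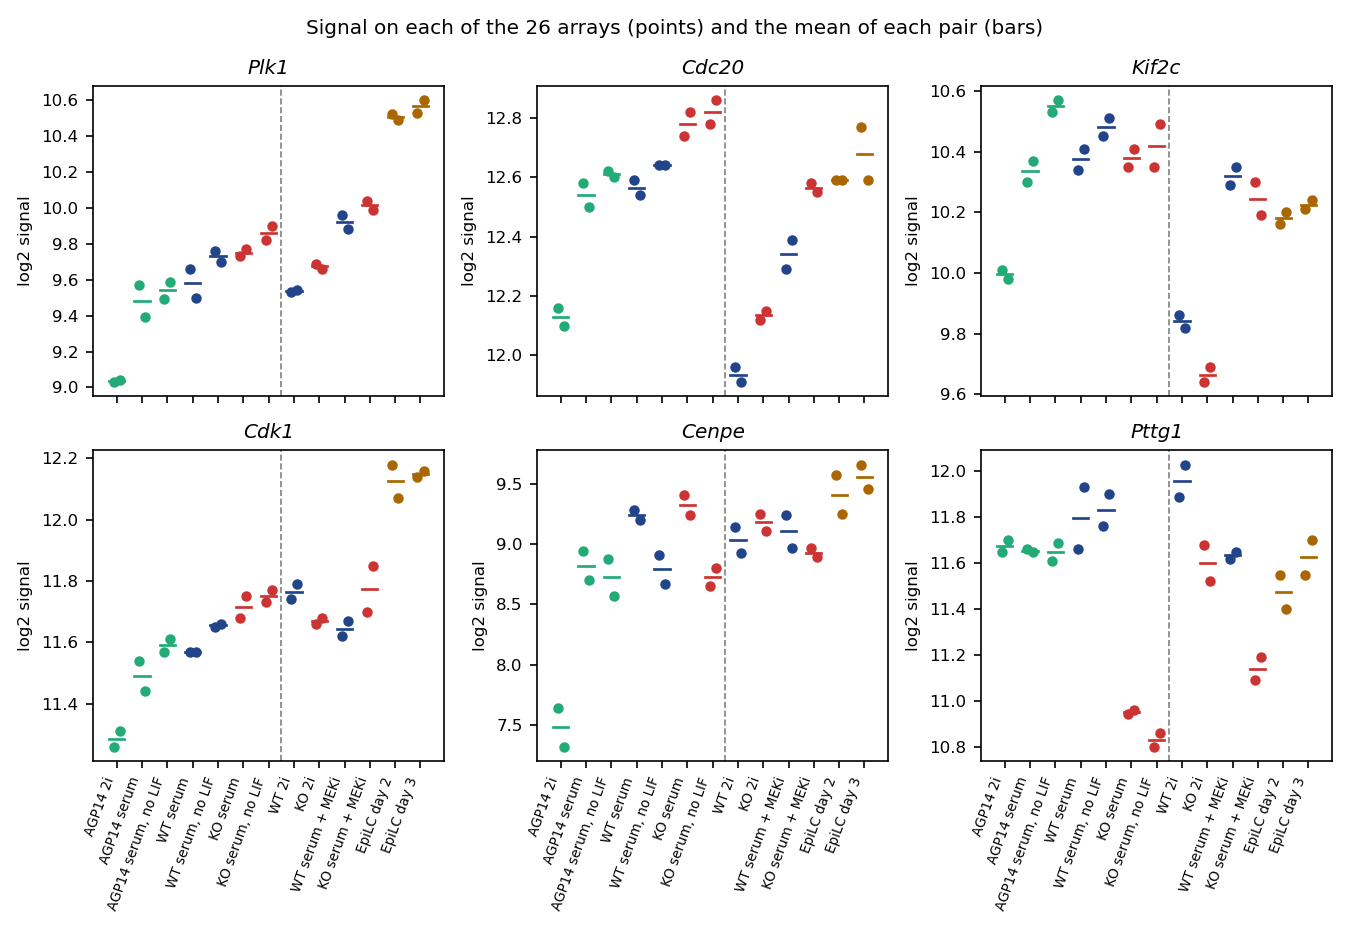
Log2 signal of 6 genes on each of the 26 arrays, with a short bar at the mean of each group's 2 arrays; green is AGP14, red knockout, blue wild type and brown EpiLC, and the dashed line splits the arrays by spike-in level. Plk1 is lowest in AGP14 in 2i (9.03 and 9.04) and highest in EpiLCs, Cenpe is low in AGP14 in 2i (7.64 and 7.32), and Pttg1 is lowest in knockout in serum with or without LIF (10.80 to 10.96).

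Feeder fibroblast markers moved the opposite way in these comparisons. Of 20 markers fixed for feeders 19 were measured, and none was at 0 in any group. Their mean signal was 8.72 to 9.32 on the 2i arrays, 8.11 to 8.44 with MEK inhibitor in serum, 6.92 to 7.70 in serum with and without LIF, and 5.90 to 6.18 in EpiLCs. The log2 of their summed signal was 14.38 to 14.49 in AGP14 in 2i and 13.14 to 13.16 in AGP14 in serum. It was 14.99 to 15.01 in wild type in 2i, 14.10 to 14.15 with MEK inhibitor and 12.09 to 12.13 in EpiLCs at day 2, and in knockout 14.73 to 14.85 in 2i and 13.65 to 14.00 with MEK inhibitor. Col1a1, the collagen gene, had group means of 9.70 ± 0.16 in wild type in 2i and 2.74 ± 0.42 in EpiLCs at day 2. Of the 19 markers 2 rose and 13 fell from 2i to serum in AGP14, 3 rose and 12 fell with MEK inhibitor in wild type, 2 rose and 12 fell in knockout, and 1 rose and 16 fell in EpiLCs at day 2. From day 2 to day 3 of EpiLC culture 5 markers rose and 1 fell, while 8 of the 35 genes rose and 0 fell. The part of the feeder markers in the results for the 35 genes was not tested.

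**Figure D4:**
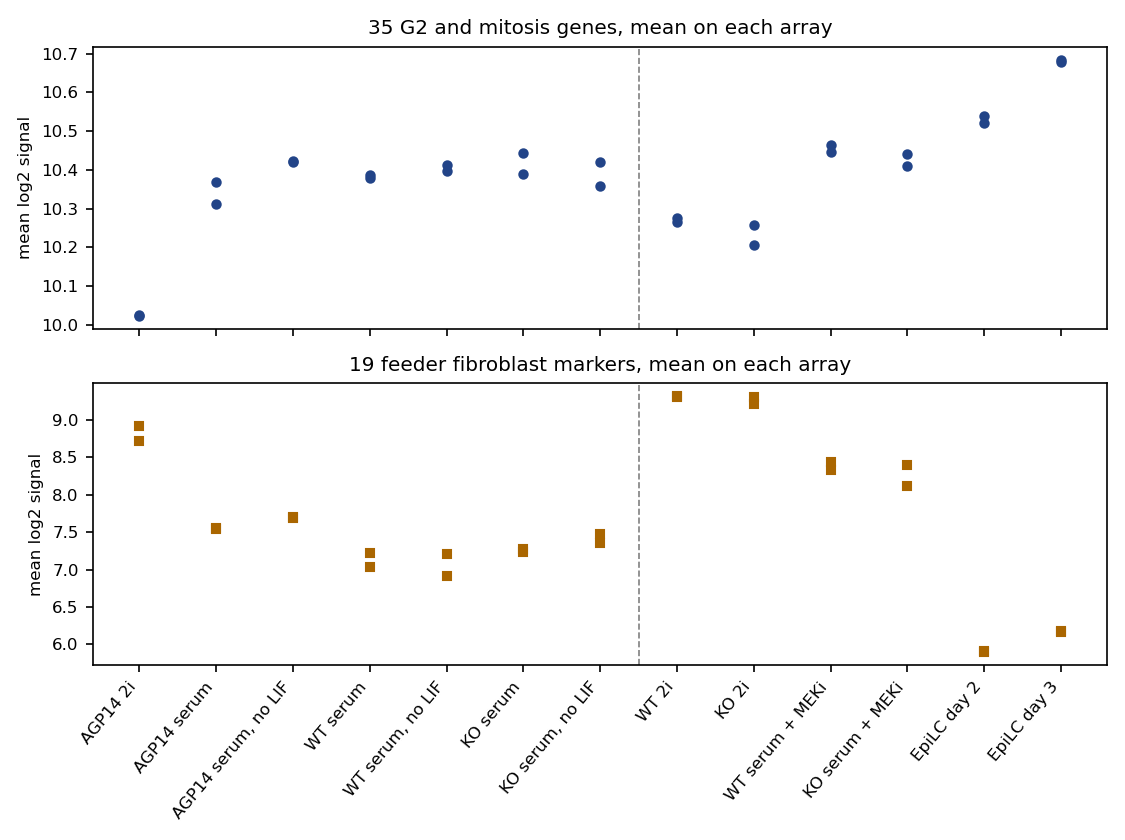
Mean log2 signal of the 35 G2 and mitosis genes (upper panel) and of 19 feeder fibroblast markers (lower panel) on each array, with the dashed line splitting the arrays by spike-in level and different ranges on the 2 axes. Within each side the 2i arrays have the lowest mean of the 35 genes and the highest mean of the feeder markers.

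Serum against 2i in wild type and knockout crossed the 2 sets of arrays. In wild type 13 of the 35 genes were higher and 4 lower, against 15.2% and 19.4% of all genes. In knockout 17 were higher and 3 lower, against 15.8% and 20.0%. Cdc20 had 12.59 and 12.54 in wild type serum, a difference of 0.63 ± 0.06 from 2i, and 12.74 and 12.82 in knockout serum against 12.12 and 12.15 in 2i (0.64 ± 0.06). Kif2c had 10.34 and 10.41 in wild type serum (0.54 ± 0.06) and 10.35 and 10.41 in knockout serum (0.72 ± 0.06). Ndc80 had 8.59 and 8.68 in wild type serum (0.66 ± 0.11), and Pttg1 10.94 and 10.96 in knockout serum against 11.68 and 11.52 in 2i, a fall by 0.65 ± 0.08. None of these overlapped between media. Ube2c was lower in serum than in 2i in wild type (-0.38) and knockout (-0.39) across the sets, and 0.20 higher in AGP14 within 1 set, where it was not called (adjusted p = 0.0786, limma). Without the second wild type 2i array the wild type count was 10 in place of 17. Other probe sets of called genes gave the opposite sign in wild type for Bub1b (-0.98), Cenpa (-0.55) and Cenpf (0.15). In knockout they did so for Cenpa (-0.44), Hmmr (-0.07), Nek2 (-0.22), Top2a (-0.53) and Ttk (-0.40). Of the feeder markers 1 rose and 14 fell in each line.

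MEK inhibitor against serum, also across the sets, gave 9 higher and 1 lower in wild type (14.3% and 11.2% of all genes) and 10 higher and 6 lower in knockout (15.0% and 9.56%). Cenpf, a large kinetochore protein, had 9.48 and 9.46 in wild type serum and 10.19 and 9.99 with inhibitor (0.62 ± 0.09). Kif11 had 9.72 and 9.80 against 10.33 and 10.35 in wild type (0.58 ± 0.08) and 9.89 and 9.93 against 10.30 and 10.53 in knockout (0.50 ± 0.08). Kif23, a motor of the central spindle, had 9.78 and 9.86 against 10.30 and 10.42 in wild type (0.54 ± 0.07). These genes did not overlap between media. In knockout Cenpf had 9.79 and 9.58 against 10.16 and 10.13 (0.46 ± 0.09), and one of its other probe sets gave -0.02. Ube2c, with 11.27 and 11.32 in serum and 11.65 and 11.75 with inhibitor, and Ccnb2, cyclin B2, with 11.15 and 11.28 against 11.58 and 11.66, both differed by 0.40. The knockout count was 10 without either serum array. Other probe sets also gave the opposite sign for Tpx2 in wild type (-0.27), and in knockout for Bub1 (0.11), Nek2 (0.15) and Tpx2 (-0.03). Feeder markers were higher with the inhibitor too, 16 of 19 in wild type and 15 in knockout.

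AGP14 against knockout in 2i crossed the sets too, with 3 genes higher and 12 lower against 8.22% and 16.0% of all genes. Cenpe, at 7.64 and 7.32 in AGP14, had 9.25 and 9.11 in knockout, a difference of -1.70 ± 0.15 (adjusted p = 3.08e-07, limma), and its other probe set gave -0.68. Cenpf had 9.08 and 8.95 against 10.02 and 9.82 (-0.90 ± 0.09), and Kif11 9.39 and 9.39 against 10.19 and 10.20 (-0.80 ± 0.08). The array pairs lay far apart for these 3 genes. The 3 higher genes were Cenpa (0.25), Espl1 (0.24) and Kif2c (0.33), and other probe sets of Cenpa (-0.50) and Kif2c (-0.35) gave the opposite sign. Among the lower genes, other probe sets of Nusap1 (0.34) and Tpx2 (0.35) did so too. In the same comparison 0 feeder markers rose and 9 of 19 fell.

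Removal of LIF for 2 days gave no call in the set. In wild type, knockout and AGP14 cells 0 of the 35 genes differed between serum without LIF and serum with LIF (limma, adjusted p under 0.05), where 1.5%, 1.1% and 0.302% of all genes did. At an unadjusted p under 0.05 there were 2, 1 and 4 genes, and the smallest adjusted p was 0.152, 0.0561 and 0.118. A fit that blocks on replicate number inside each line called 1, 1 and 2 genes. Differences ran from -0.45 to 0.16 in wild type, -0.60 to 0.11 in knockout and -0.10 to 0.29 in AGP14. Cenpe gave the lower end in the first 2 lines, with 9.28 and 9.20 in wild type with LIF against 8.91 and 8.67 without, and 9.41 and 9.24 against 8.65 and 8.80 in knockout. Its arrays did not overlap between the media in either line, yet the differences did not pass the test over all genes.

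Between genotypes within 1 set of arrays, 1 to 8 of the 35 genes were called, depending on the comparison. The shares of all genes are given beside each count below. Pttg1 had the largest of the called differences between knockout and wild type in serum and without LIF. Pttg1 encodes securin, the inhibitor that holds separase inactive until anaphase. In 2i it had 11.89 and 12.03 in wild type and 11.68 and 11.52 in knockout. In serum it had 11.66 and 11.93 against 10.94 and 10.96, and without LIF 11.76 and 11.90 against 10.80 and 10.86. The knockout arrays were below the wild type arrays in each medium, also with MEK inhibitor in serum, where wild type had 11.62 and 11.65 and knockout 11.09 and 11.19. Knockout minus wild type was -0.36 ± 0.08 in 2i (adjusted p = 0.0106), -0.84 ± 0.08 in serum (adjusted p = 2.71e-05), -1.0 ± 0.08 without LIF (adjusted p = 1.63e-06) and -0.50 ± 0.08 with MEK inhibitor (adjusted p = 0.00198), all by limma. The call in 2i was lost without the second knockout array (adjusted p = 0.122) or the second wild type array (0.0844), and the other 3 held without each array. Its 2 other probe sets gave -0.62 and -0.42 in 2i and -1.53 and -0.31 in serum.

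In AGP14 cells Pttg1 had 11.66 and 11.65 in serum, 11.61 and 11.69 without LIF, and 11.65 and 11.70 in 2i. The arrays were above those of knockout in serum and without LIF, and overlapped them in 2i, where they were below those of wild type. AGP14 minus knockout was 0.70 ± 0.08 in serum (adjusted p = 3.22e-05, limma) and 0.82 ± 0.08 without LIF (adjusted p = 2.83e-06, limma), on the knockout arrays already used above. Both calls held without each array, and the 2 other probe sets gave 0.41 and 1.26 in serum. The differences from wild type in these media were not called. The EpiLC arrays had 11.55 and 11.40 at day 2 and 11.55 and 11.70 at day 3, all above the knockout arrays in serum, and 1 of them above the lower wild type array there.

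**Figure D5:**
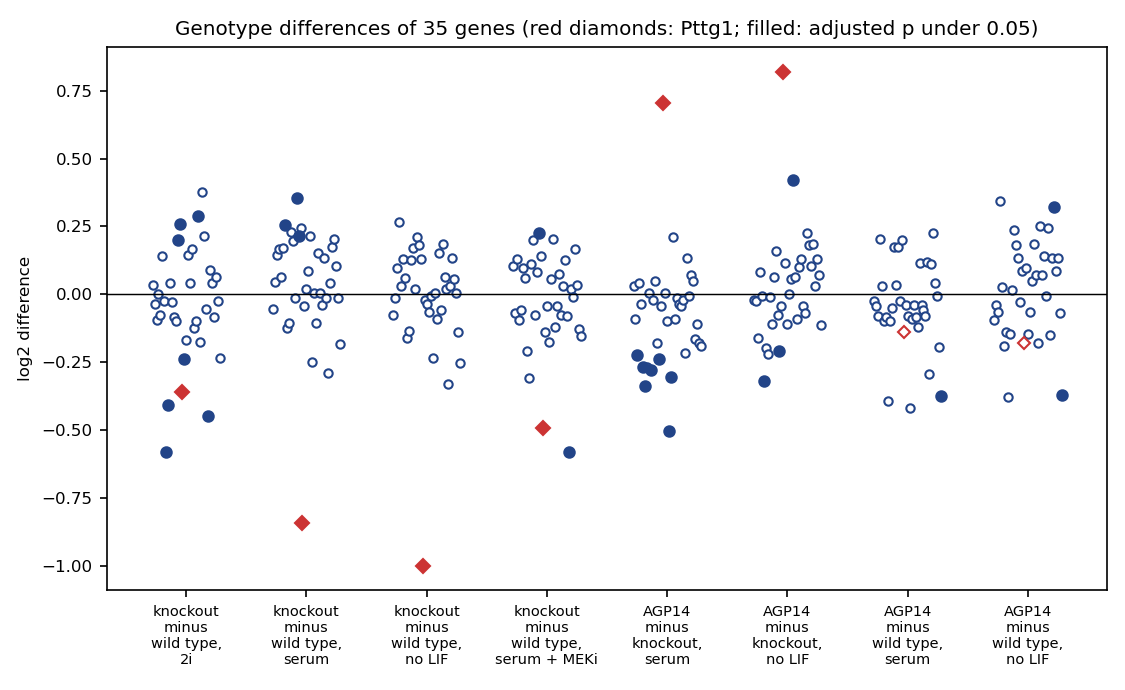
Log2 difference between genotypes for the 35 genes in the 8 comparisons that lie within 1 level of the spike-in controls; red diamonds are Pttg1 and filled symbols have an adjusted p under 0.05 (limma). Pttg1 lies below 0 in the 4 knockout minus wild type comparisons (-0.36 to -1.0) and above 0 in both AGP14 minus knockout comparisons (0.70 and 0.82).

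In 2i 8 of the 35 genes were called between knockout and wild type, 3 higher and 5 lower, against 3.63% and 5.52% of all genes. Aurkb had 10.05 and 9.58 in wild type and 9.23 and 9.24 in knockout (-0.58 ± 0.13, adjusted p = 0.00922, limma). Hmmr had 10.25 and 9.85 against 9.60 and 9.60 (-0.45 ± 0.12, adjusted p = 0.0215, limma), and Nek2, a kinase of centrosome separation, 10 and 9.72 against 9.50 and 9.40 (-0.41 ± 0.11, adjusted p = 0.0212, limma). In each of these the 2 wild type arrays were farther apart than the 2 knockout arrays. For these genes the first wild type array was the higher of the 2 in every medium, so their differences lean on that array. Of the 3 other probe sets of Nek2 2 gave the opposite sign, up to 0.67. The remaining calls were Pttg1, Espl1, the separase gene (-0.24), Cdc20 (0.20), Ube2c (0.26) and Kif11 (0.29). The count fell to 1 without either knockout array and to 2 without the first wild type array. Each of the 8 calls, those of Cdc20 and Espl1 included, was lost without at least 1 of the 4 arrays. Over the 4 omissions the difference was 0.18 to 0.23 for Cdc20 and -0.30 to -0.19 for Espl1. It ranged from -0.82 to -0.35 for Aurkb, -0.65 to -0.25 for Hmmr and 0.12 to 0.41 for Ube2c.

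In serum 3 genes were higher and 1 lower in knockout, against 1.39% and 2.79% of all genes. Besides Pttg1 these were Mad2l1, with 10.83 and 11 in wild type and 11.28 and 11.26 in knockout (0.35 ± 0.08, adjusted p = 0.0202, limma), Aurka, with 10.51 and 10.39 against 10.66 and 10.75 (0.26 ± 0.07, adjusted p = 0.0478, limma), and Cdc20 (0.22). The other probe set of Aurka, the kinase of the spindle poles, gave -0.53. The count was 1 without either knockout array or the first wild type array and 2 without the second wild type array. Without LIF Pttg1 was the only called gene, 1 lower against 2.44% of all genes and 0 higher against 1.75%, and the count was 2 without the second wild type array. With MEK inhibitor 1 gene was higher (Cdc20, 12.58 and 12.55 against 12.29 and 12.39, 0.22 ± 0.06, adjusted p = 0.0269, limma) and 2 lower, Pttg1 and Hmmr (9.93 and 9.94 against 10.69 and 10.34, -0.58 ± 0.12, adjusted p = 0.00768, limma), against 1.86% and 2.22% of all genes. Without the first wild type array that count was 1.

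AGP14 against knockout in serum gave 1 gene higher, Pttg1, and 7 lower, against 5.23% and 5.28% of all genes. Cenpe had 8.94 and 8.70 in AGP14 and 9.41 and 9.24 in knockout (-0.50 ± 0.15, adjusted p = 0.0325, limma), and Aurka 10.42 and 10.31 against 10.66 and 10.75 (-0.34 ± 0.07, adjusted p = 0.00387, limma). Cenpf (-0.30), Bub1 (-0.28), Plk1 (-0.27), Cdc20 (-0.24) and Cdk1 (-0.22) made up the rest, and the other probe sets of Bub1 (0.80) and Aurka (0.03) ran the other way. The count was 1 without the second AGP14 array, 4 without the first knockout array and 2 without the second. Without LIF 2 genes were higher and 2 lower, against 8.09% and 5.22% of all genes. Besides Pttg1 these were Ndc80 (8.72 and 8.61 against 8.13 and 8.36, 0.42 ± 0.11, adjusted p = 0.0138, limma), Plk1 (-0.32 ± 0.07, adjusted p = 0.00479, limma) and Cdc20 (-0.21). The count was 1 without the first AGP14 array and 2 without the second knockout array.

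Against wild type, AGP14 cells differed in 1 gene in serum, Top2a (-0.38 ± 0.10, adjusted p = 0.0282, limma), where 4.61% of all genes were lower and 2.35% higher. Without LIF they differed in Top2a (-0.37 ± 0.10, adjusted p = 0.0204, limma) and in Kif23 (10.15 and 10.18 against 9.85 and 9.84, 0.32 ± 0.07, adjusted p = 0.00536, limma), where 4.33% were lower and 6.34% higher. Both other probe sets of Top2a were lower in serum too, by -0.62 and -0.59. The call in serum was lost without either AGP14 array or the first wild type array, and 3 genes were called without the second wild type array. The count without LIF was 1 without the first AGP14 array and 0 without the second AGP14 array or the first wild type array. Feeder markers differed here as well, 5 of 19 higher in AGP14 in serum and 12 without LIF, and their part was not tested.

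Whether the genotype difference itself changed with medium was tested as an interaction, in which each genotype difference lies within 1 set of arrays. From 2i to serum the difference between knockout and wild type moved by -0.48 for Pttg1 (adjusted p = 0.0351, limma) and by 0.46 for Mad2l1 (adjusted p = 0.0421, limma), 1 gene up and 1 down against 1.36% and 1.62% of all genes. Mad2l1 had 10.96 and 10.87 in knockout in 2i, below both wild type arrays there, and in serum both knockout arrays were above the wild type arrays. The count was 0 without the first 2i array of either genotype or without either knockout serum array, and 1 without the second knockout 2i array or either wild type serum array. From serum to serum without LIF, 0 of the 35 genes and 0 of all 18193 were called, with 0 and 654 at an unadjusted p under 0.05. From serum to serum with MEK inhibitor, 0 of the 35 genes and 0.231% of all genes were called, with 3 of the 35 at an unadjusted p under 0.05.

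Wider lists of cell cycle genes were counted in the same comparisons. The shares of all genes called higher and lower were 9.97% and 8.22% from 2i to serum in AGP14, 17.2% and 21.1% in EpiLCs at day 2, 7.89% and 9.69% from day 2 to day 3, and 3.63% and 5.52% for knockout against wild type in 2i. Of 56 other G2 and mitosis genes 18 rose and 1 fell from 2i to serum in AGP14 (median 0.15), led by Cdca2 (0.86), Cenpk (0.65) and Cdc25b (0.62). With MEK inhibitor in serum against 2i 10 rose and 1 fell in wild type, against 5.45% and 7.06% of all genes. In knockout 12 rose and 1 fell, against 6.61% and 6.59%. For EpiLCs at day 2 the counts were 22 higher and 14 lower. In EpiLCs Mybl2, the B-Myb factor of the late cell cycle program, fell by 1.06 (adjusted p = 2.78e-09, limma), while Foxm1 rose by 0.42 (adjusted p = 0.0334, limma). Mki67, a marker of cycling cells, rose by 0.31 from 2i to serum in AGP14 (adjusted p = 0.0192, limma), by 0.32 with MEK inhibitor in wild type (adjusted p = 0.0209, limma) and by 0.47 from day 2 to day 3 in EpiLCs (adjusted p = 0.000898, limma).

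Of 40 measured G1/S and DNA replication genes, 0 rose and 11 fell in knockout against wild type in 2i (median -0.22), led by Ccne1 (-1.0), Tk1 (-0.86) and Cdc7 (-0.66), where the 35 mitosis genes had a median of -0.03. From EpiLC day 2 to day 3, 1 rose and 15 fell (median -0.21), led by E2f3 (-1.69), Fen1 (-0.97) and Ccne2 (-0.87), while 8 of the 35 rose. From 2i to serum in AGP14, 8 rose and 0 fell. Of 15 D cyclins and CDK inhibitors 2 rose and 4 fell there, led by Cdkn1c (1.45), Cdkn1a (-1.10) and Cdkn2a (-1.0), and 1 rose and 8 fell in EpiLCs at day 2. Cdkn1a, the p21 inhibitor induced by p53, fell by 2.92 in EpiLCs (adjusted p = 1.81e-08, limma). Ccnd1 did not pass the test in the 4 comparisons with 2i within 1 set. Of 14 anaphase promoting complex genes, which degrade several of the 35 proteins, 1 rose and 2 fell from 2i to serum in AGP14 (median 0.00), and 4 rose and 4 fell in EpiLCs at day 2, both near the shares of all genes. Of 13 p53 targets, 1 rose and 5 fell in AGP14 serum and 2 rose and 10 fell in EpiLCs. Of 9 housekeeping genes, 1 rose and 3 fell in AGP14 serum (median 0.05).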

How the data were processed

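Values of 45100 probe sets on 26 Affymetrix arrays were used as the authors deposited them, on a log2 scale by their range (the base is inferred, and their normalization is not stated in the labels). Per the labels, RNA was extracted with a column kit and labelled by a one-cycle protocol. Array medians were 4.86 to 5.01, and the number of arrays limits the precision. Of the probe sets 34944 had 1 symbol in the platform annotation, 932 several and 9160 none, with 64 controls left out. Each gene took its probe set with the highest mean. One model with 13 groups was fitted with limma 3.58.1 (R 4.3.3, eBayes with trend) and p-values were adjusted by Benjamini-Hochberg over 18193 genes, with calls at an adjusted p under 0.05. Genes named with every array are the 3 largest called differences of each comparison, and Cdk1, Plk1 and Top2a as references. The members and lists were chosen with earlier results of these data known. Promoter windows are RefSeq's (GRCm38.p6). Alternatives were quantile normalization, the mean of probe sets, a filter on dim genes, no trend, a replicate block, the compared groups alone, arrays of 1 spike-in level and leaving out each array. The fit was also run on simulated data built from the main fit, for knockout against wild type in serum. There it called 13 of 67 genes changed by 0.5 log2 units, 40 of 67 changed by 1 and 56 of 66 changed by 2. Differences near 0.5 can thus be missed, and a count of 0 does not show that there was no difference.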

Additional observations from a re-analysis of the deposited data

Results flagged for a closer look

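Pttg1 and Mad2l1 differed in how the knockout compared with wild type in serum and in 2i, by a test of the difference itself. For Pttg1, securin, the genotype difference was lower in serum by -0.48 (adjusted p = 0.0351, limma), and the call was lost without any 1 of 5 of the 8 arrays (highest adjusted p = 0.149). For Mad2l1, the checkpoint protein, it was higher by 0.46 (adjusted p = 0.0421, limma), and the call was lost without any 1 of 7 of the 8 arrays (highest adjusted p = 0.148).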

How the results depend on the processing

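Of 190 called pairs of gene and comparison, 97 held without each array in turn and 93 were lost without at least 1. The mean of probe sets kept 130, with 43 weaker and 17 of opposite sign. Quantile normalization kept 175, no trend 150, the compared groups alone 111, the replicate block 190 and the filter on dim genes 190; arrays of 1 spike-in level kept 85 of 110. The cause of the changes below was not tested, except that the compared groups alone leave fewer arrays for the spread. Taking the mean of a gene's probe sets turned 17 signs: Nek2 0.026 in knockout against wild type in 2i; Aurka -0.14 in serum; Cenpa -0.003, Kif2c -0.036 and Nusap1 0.033 in AGP14 against knockout in 2i; Bub1 0.257 in serum; serum against 2i for Bub1b -0.245 in wild type, Top2a -0.07 and Ttk -0.047 in knockout, and Bub1b -0.052, Kif23 -0.057 and Top2a -0.19 in AGP14; EpiLC day 2 for Bub1b -0.108, Kif11 -0.007 and Ttk -0.097; and day 3 for Anln -0.0 and Tpx2 -0.029.

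Counts of called genes that moved over 1.5 times follow. Knockout against wild type in 2i (8) gave 5 with the mean of probe sets, 2 without trend, 0 with the compared groups, 1 with 1 spike-in level and 1 to 7 without 1 array. In serum (4) it gave 9 with quantile normalization, 1 without trend, 0 with the compared groups and 1 to 2 without 1 array. Without LIF (1) it gave 2 with quantile normalization or the dim filter and 1 to 2 without 1 array. With MEK inhibitor (3) it gave 0 with the compared groups, 1 with 1 spike-in level and 1 to 4 without 1 array. AGP14 against knockout in serum (8) gave 4 without trend or with the compared groups and 1 to 7 without 1 array, and without LIF (4) 8 with the dim filter and 1 to 3 without 1 array. AGP14 against wild type in serum (1) gave 2 with quantile normalization or the dim filter, 0 with the mean of probe sets, without trend or with the compared groups, 3 with the replicate block, 4 with 1 spike-in level and 0 to 3 without 1 array. Without LIF (2) it gave 4 with quantile normalization, 0 with the mean, 5 with the dim filter, the block or 1 spike-in level, 1 without trend or with the compared groups and 0 to 2 without 1 array.

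Serum against 2i gave 6 with the compared groups and 10 to 18 without 1 array in wild type (17), 13 with the mean in knockout (20) and 14 to 23 without 1 array in AGP14 (25). Removal of LIF (0) gave 1 in wild type with the replicate block overall or within genotype, 1 in knockout with the dim filter or either block, and 2 in AGP14 with the block within genotype. MEK inhibitor against serum with the compared groups gave 4 in wild type (10) and 8 in knockout (16), and 10 to 12 without 1 array in knockout. MEK inhibitor against 2i gave 0 with the compared groups in wild type (12), and in knockout (14) 2 with the compared groups, 24 with the block within genotype, 9 with 1 spike-in level and 9 to 12 without 1 array. EpiLC day 3 (8) gave 5 without trend, 3 with 1 spike-in level and 2 to 6 without 1 array. The genotype difference between serum and 2i (2) gave 0 with the mean, without trend or with the compared groups and 0 to 2 without 1 array.

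Arrays of 1 line with the same replicate number deviated together with correlations of 0.1056 to 0.216 in wild type (6 of 6 pairs of groups over 0.1), 0.0989 to 0.2015 in knockout (5 of 6) and 0.0137 to 0.071 in AGP14 (0 of 3), and between lines of -0.0605 to 0.0475. With 2 numbers per group this is a hint from the data that numbers pair arrays within the wild type and knockout lines, and the labels do not say so. The block within genotype lost 0 of 114 calls.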
